A study of Homo sapiens with 2 samples.

Results

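Immediate-early and stress response genes were followed in human embryonic stem cells (hESCs) treated with bone morphogenetic protein 4 (BMP4), as a set of 10 genes out of the 33538 counted: FOS, FOSB, JUN, JUNB, EGR1, IER2, ATF3, DUSP1, GADD45B and GADD45G. They were chosen by symbol, and all 10 were found once in both libraries. The WT library came from H1, an established hESC line, and the GATA3 KO library from KO-GATA3-06, a single clone whose GATA3 gene, which encodes a zinc-finger transcription factor, had been targeted with Cas9 in H1 cells that carry an inducible Cas9 cassette. Both had grown on Matrigel in mTeSR1 with 50 ng/ml BMP4 for 48 h, and both had been dissociated at 37 degrees for up to 20 min before capture. The protocol text of the WT library names 1 h of BMP4 while its title and recorded duration give 48 h, and the exposure bears directly on genes that respond within minutes. With 1 library per genotype, clone, cassette, library and genotype cannot be told apart, and no difference between libraries was tested.

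Immediate-early genes are transcribed within minutes of a signal, without new protein synthesis, because the factors that switch them on (serum response factor with its ternary complex partners, and CREB) already sit at their promoters and are activated by kinases such as ERK. Their mRNAs are short-lived, so their levels can change fast. The same genes respond to growth factors and to stress, including the handling of tissue and the dissociation of cells.

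The products fall into a few roles. FOS, FOSB, JUN and JUNB are the subunits of AP-1, a dimeric transcription factor, and ATF3 is a stress-induced relative that pairs with JUN proteins. EGR1 is a zinc-finger factor induced by ERK signalling, and IER2 is a small nuclear protein of the same early wave. DUSP1 is a phosphatase that switches off MAP kinases. GADD45B and GADD45G are small stress proteins that bind the kinase MAP3K4, and GADD45B is also a target of TGF-beta signalling.

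The promoters of 6 of these genes are shown because the results turn on them, or, for DUSP1, because the window held a full CRE, and because the letters let known inducing elements beside each start site be read. Each window runs from 250 bases before to 50 bases after the start site (RefSeq, GRCh38.p14), and capitals mark matches, on either strand, to the CArG box of serum response factor, the CRE element TGACGTCA, the AP-1 element TGANTCA, the EGR element GCGNGGGCG, the GATA element GATAAG and the TATA box TATAAA.
FOS, chr14:75278578-75278877, plus strand: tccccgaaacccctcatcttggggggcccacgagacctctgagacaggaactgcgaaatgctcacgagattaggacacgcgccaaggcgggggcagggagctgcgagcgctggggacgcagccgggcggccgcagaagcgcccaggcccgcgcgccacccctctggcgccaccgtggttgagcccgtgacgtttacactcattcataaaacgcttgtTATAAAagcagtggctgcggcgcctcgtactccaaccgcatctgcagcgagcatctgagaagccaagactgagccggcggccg
JUN, chr1:58783998-58784297, minus strand: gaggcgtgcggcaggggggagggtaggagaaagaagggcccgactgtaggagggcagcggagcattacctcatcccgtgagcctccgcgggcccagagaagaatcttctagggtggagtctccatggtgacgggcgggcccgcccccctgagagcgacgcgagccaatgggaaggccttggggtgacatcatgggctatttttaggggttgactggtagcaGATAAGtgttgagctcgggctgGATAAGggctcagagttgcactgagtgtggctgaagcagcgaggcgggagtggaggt
EGR1, chr5:138465229-138465528, plus strand: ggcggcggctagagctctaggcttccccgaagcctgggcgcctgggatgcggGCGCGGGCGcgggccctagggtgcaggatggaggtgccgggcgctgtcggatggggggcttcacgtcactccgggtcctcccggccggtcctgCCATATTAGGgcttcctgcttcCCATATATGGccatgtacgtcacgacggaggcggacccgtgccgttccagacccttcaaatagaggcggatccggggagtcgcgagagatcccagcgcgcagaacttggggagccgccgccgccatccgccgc
DUSP1, chr5:172771146-172771445, minus strand: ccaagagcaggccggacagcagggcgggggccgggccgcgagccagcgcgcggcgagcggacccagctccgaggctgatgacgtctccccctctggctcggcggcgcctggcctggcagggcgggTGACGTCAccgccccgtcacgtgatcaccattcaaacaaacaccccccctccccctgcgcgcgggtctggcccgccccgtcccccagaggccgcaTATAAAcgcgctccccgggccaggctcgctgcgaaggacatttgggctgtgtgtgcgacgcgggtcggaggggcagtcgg
GADD45B, chr19:2475877-2476176, plus strand: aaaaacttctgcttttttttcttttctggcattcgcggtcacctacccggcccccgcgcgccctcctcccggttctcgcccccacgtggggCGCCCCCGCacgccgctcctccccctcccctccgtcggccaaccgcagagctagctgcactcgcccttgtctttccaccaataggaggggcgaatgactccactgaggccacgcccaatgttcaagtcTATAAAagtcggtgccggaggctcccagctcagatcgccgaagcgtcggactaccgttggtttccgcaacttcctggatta
GADD45G, chr9:89604762-89605061, plus strand: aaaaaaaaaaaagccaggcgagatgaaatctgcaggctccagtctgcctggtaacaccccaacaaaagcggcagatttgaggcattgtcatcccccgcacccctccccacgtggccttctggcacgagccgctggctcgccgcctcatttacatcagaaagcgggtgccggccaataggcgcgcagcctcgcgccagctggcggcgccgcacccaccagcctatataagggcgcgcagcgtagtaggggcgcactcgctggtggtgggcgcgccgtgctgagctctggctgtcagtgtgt

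The EGR1 window held 2 CArG boxes, at -105 and -83 from the start site, and the EGR element at -198. A CArG box was found in 1.29% of the 35116 promoters of the same length. DUSP1 held the full CRE at -125, which 1.85% of promoters held. JUN held 2 GATA elements, at -29 and -7 (6.36% of promoters held 1 or more), and GADD45B held an EGR element (9.43%). The AP-1 element was in 0 of the 11 windows of the 10 genes (ATF3 has 2 start sites) and in 7.71% of all promoters. The TATA box letters TATAAA were in 6 of the 11, those of FOS, FOSB, JUNB, ATF3, DUSP1 and GADD45B, against 11.5% of all promoters. The ATF3 match lay at -230, and the others lay between -33 and -30. The GC-rich SMAD element GGCGCC, not set in capitals, was in 5 of the 11 (DUSP1, EGR1, FOS, GADD45B and GADD45G), against 19.2% of all promoters. These are matches of letters and say nothing about binding. Variants of these letters, and sequence outside the windows, were not searched.

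All 10 are protein-coding genes (GRCh38). FOS spans chr14:75278826-75282230 on the plus strand, EGR1 chr5:138465479-138469303 on the plus strand, JUN chr1:58776845-58784048 on the minus strand and GADD45B chr19:2476122-2478259 on the plus strand. None of the 10 overlapped another counted gene on its own strand. FOSB, JUNB, IER2 and DUSP1 overlapped a gene on the opposite strand, ERCC1 and HOOK2 being those of FOSB and JUNB.

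Counts were of unique molecular identifiers (UMIs), each standing for 1 captured transcript molecule read at its 3′ end. After removal of cells over 7500 detected genes or over 25% mitochondrial counts, 2519 of 3802 WT cells and 4450 of 6221 GATA3 KO cells remained, with medians of 44415 and 43131.5 UMIs per cell. Levels are UMIs per 1000000 UMIs of the library (CPM) with exact Poisson 95% intervals, and all intervals cover counting error only. GATA3 transcripts stood at 12.7 CPM (12.0 to 13.4) in WT, and at 10.9 CPM (10.5 to 11.4) in the KO clone. Counts at the 3′ end are blind to a disrupted reading frame and so do not check the label.

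In the library labelled GATA3 KO, JUN, EGR1 and GADD45G stood higher than in WT and GADD45B and JUNB lower, while IER2, the most counted of the set, was nearly level over all cells. Differences are given as log2 ratios of CPM + 1, GATA3 KO over WT, a scale that understates differences of low genes. Of the 9 genes with a mean of 1 CPM or more (FOSB fell below it), 3 were at least 1.5-fold higher, where 12.9% of all 13149 genes were, and 2 were at least 1.5-fold lower, where 7.83% were. At 2-fold, 0 of the 9 were higher (2.11% of all genes) and GADD45B alone was lower (2.17%). The median log2 ratio of the 10 was 0.15, with 7 above 0 and 3 below, against 0.07 over all genes.

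Among the AP-1 subunits, FOS and JUN ran in opposite directions. FOS had 16.8 CPM (16.0 to 17.6) in WT, against 12.6 CPM (12.0 to 13.1) in GATA3 KO, or a log2 ratio of -0.39 (-0.48 to -0.30). JUN had 8.81 CPM (8.23 to 9.41), against 15.7 CPM (15.1 to 16.3), or a log2 ratio of 0.77 (0.67 to 0.87). So FOS was the more counted of the pair in WT and JUN in GATA3 KO. JUNB was at 4.85 CPM in WT and 2.18 CPM in GATA3 KO, a log2 ratio of -0.88 (-1.03 to -0.73). FOSB was near the limit of counting, with 65 UMIs in WT and 136 in GATA3 KO, and its log2 ratio of 0.10 had an interval that spanned 0 (-0.08 to 0.28). ATF3 was at 8.39 CPM and 10.2 CPM, a log2 ratio of 0.25 (0.14 to 0.36).

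EGR1, the other inducible transcription factor, followed JUN rather than FOS. It had 5.23 CPM (4.79 to 5.70) in WT, against 8.91 CPM (8.47 to 9.36) in GATA3 KO, or a log2 ratio of 0.67 (0.55 to 0.79). With the cells over 7500 genes kept (1012 in WT and 1265 in GATA3 KO), its log2 ratio was 0.37, below 1.5-fold. IER2 had 98.1 CPM (96.1 to 100.02), against 99.4 CPM (97.9 to 100.9), or a log2 ratio of 0.02 (-0.02 to 0.05). The phosphatase gene DUSP1 was at 5.29 CPM and 6.20 CPM, a log2 ratio of 0.19 (0.07 to 0.32).

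The GADD45 genes lay in opposite directions. GADD45B had 39.1 CPM (37.9 to 40.3) in WT, against 16.5 CPM (15.9 to 17.1) in GATA3 KO, or a log2 ratio of -1.19 (-1.26 to -1.13), or 2.29-fold lower on this scale. GADD45G had 3.55 CPM (3.19 to 3.94), against 7.76 CPM (7.35 to 8.18), or a log2 ratio of 0.94 (0.81 to 1.08), or 1.92-fold higher.

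**Figure D1:**
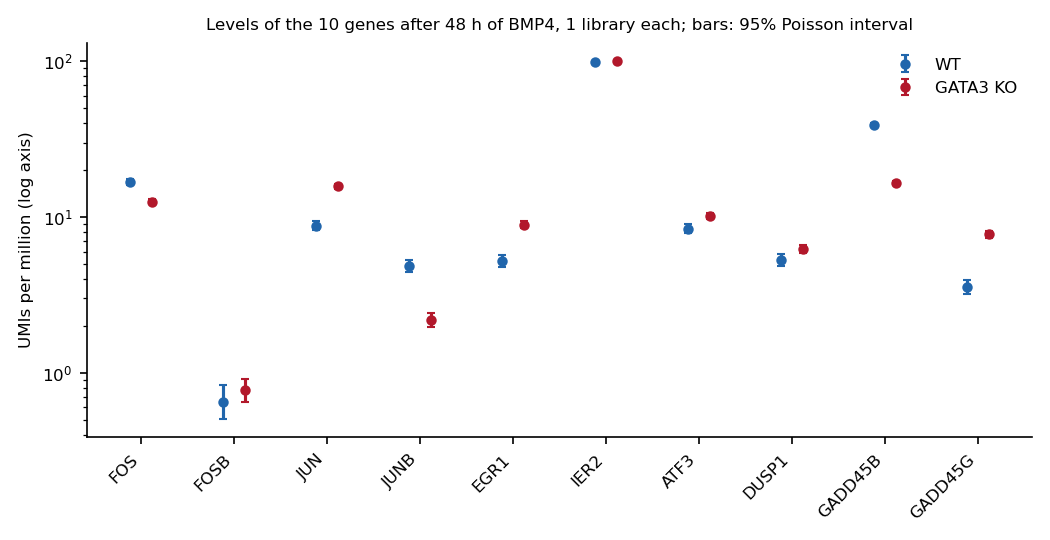
Level of each of the 10 genes in CPM (log axis) in the WT library (blue) and the GATA3 KO library (red), with points for the library's sum over kept cells and bars for 95% Poisson intervals. GADD45B sits at 39.1 in WT against 16.5 in GATA3 KO, JUN and GADD45G lie the other way, and the IER2 points lie level.

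Most cells held few of these transcripts. In cells thinned at random to 10000 UMIs (2173 WT and 4038 GATA3 KO cells; 346 and 412 shallower cells were left out), IER2 was seen in 58.3% (exact Clopper-Pearson 95% interval 56.2 to 60.4) of WT and 56.6% (55.1 to 58.2) of GATA3 KO cells. GADD45B was seen in 26.1% (24.3 to 28.0) and 11.7% (10.7 to 12.7), and FOS in 14.1% (12.7 to 15.7) and 10.1% (9.22 to 11.1). JUN went from 7.09% (6.04 to 8.25) to 11.0% (10.1 to 12.1), and each of the other 6 genes was seen in under 10% of cells of either library. Without thinning the shares were 85.5% and 84.1% for IER2, 52.4% and 29.8% for GADD45B and 35.6% and 26.9% for FOS. No class of cells was known to lack these genes, so the background share from free RNA could not be set. Over the streak, amnion/trophectoderm and SOX2 marker groups described next, whose cells held medians of 42262 to 49110.5 UMIs before thinning, the lowest share was 52.1% in WT and 53.7% in GATA3 KO for IER2, 13.2% and 7.13% for GADD45B, 10.0% and 6.56% for FOS, and 3.43% and 6.56% for JUN. A median cell of either library held 1 of the 10 genes at this depth. None was seen in 21.2% of WT and 25.1% of GATA3 KO cells, and 3 or more were seen in 11.6% and 10.0%.

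The UMIs of the low genes sat in a small part of the cells. The 1% of cells with the most UMIs of a gene held 58.5% of FOSB UMIs in WT and 58.1% in GATA3 KO, 26.7% and 22.9% of those of EGR1, and 4.90% and 5.49% of those of IER2. The highest single cell held 27 UMIs of JUN in WT and 20 in GATA3 KO.

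The genes differed sharply between cells with markers of different lineages. Marker groups were drawn from thinned cells as ranges of marker UMIs, not as cell types. The streak group had at least 2 UMIs over MIXL1, EOMES and TBXT, factors of the primitive streak, from which mesoderm and endoderm arise. The amnion/trophectoderm group had at least 2 over TFAP2A, GATA3, HAND1 and ISL1, factors of those extra-embryonic lineages, and the SOX2 group had at least 2 UMIs of that pluripotency factor and fewer than 2 of each other set. They held 648, 118 and 729 WT cells and 61, 444 and 2987 GATA3 KO cells. GATA3 is both a marker here and the targeted gene. Of the amnion/trophectoderm cells 42 in WT and 139 in GATA3 KO had exactly 2 marker UMIs, and 250 and 391 other cells had 1. Levels in these groups are CPM of the non-mitochondrial UMIs.

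Cells with amnion/trophectoderm markers carried the highest levels of most of the set, in both libraries. FOSB, too low in the other groups, passed the filter of a mean of 1 CPM only through this one and is left out of the counts. Against the SOX2 group, 6 of the other 9 genes were at least 1.5-fold higher there in WT, where 9.97% of all genes were, and 6 of 9 were in GATA3 KO, where 8.68% were. These were FOS, JUN, EGR1, IER2, DUSP1 and GADD45B in each library. GADD45G alone was at least 1.5-fold lower in WT (19.1% of all genes) and in GATA3 KO (14.2%).

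EGR1 was the gene that most set these cells apart from the streak group. In WT it was at 27.1 (22.4 to 32.6) in the amnion/trophectoderm group, 5.32 (4.50 to 6.24) in the SOX2 group and 2.56 (1.99 to 3.24) in the streak group. In GATA3 KO the values were 24.2 (21.97 to 26.6), 8.59 (8.05 to 9.14) and 2.33 (0.86 to 5.08), the last from 6 UMIs. The order was the same in both libraries, and the intervals of the SOX2 and amnion/trophectoderm groups lay far apart.

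FOS and JUN were also highest there. FOS was at 34.9 (29.5 to 41.0) in WT amnion/trophectoderm cells, 20.1 (18.5 to 21.9) in streak cells and 12.5 (11.2 to 13.9) in SOX2 cells. In GATA3 KO it was at 42.3 (39.3 to 45.5), 12.4 (8.51 to 17.6) and 10.3 (9.70 to 10.9). JUN was at 27.8 (23.0 to 33.3) in WT and 32.9 (30.3 to 35.7) in GATA3 KO amnion/trophectoderm cells, near each other, while in SOX2 cells it was at 4.68 (3.92 to 5.55) in WT and 13.5 (12.9 to 14.2) in GATA3 KO. FOSB UMIs were few, 8 in WT and 72 in GATA3 KO amnion/trophectoderm cells.

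The GADD45 genes separated the groups in opposite directions. GADD45B was at 67.9 (60.3 to 76.3) in amnion/trophectoderm and 63.5 (60.5 to 66.6) in streak cells of WT, against 18.5 (16.9 to 20.1) in SOX2 cells. In GATA3 KO it was at 52.8 (49.5 to 56.3), 71.2 (61.2 to 82.3) and 10.4 (9.80 to 11.0). GADD45G was highest in SOX2 cells, at 7.84 (6.84 to 8.95) in WT and 10.5 (9.94 to 11.1) in GATA3 KO, and at 1.30 and 1.17 in streak cells. It was the only one of the 10 with more than 1.5-fold lower values in both marker groups of both libraries.

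Streak cells showed a narrower set. In WT, FOS, JUN, DUSP1 and GADD45B, 4 of 9 genes, were at least 1.5-fold above SOX2 cells (5.65% of all genes), and EGR1 and GADD45G were below (7.68%). In GATA3 KO, IER2 and GADD45B, 2 of 9, were above (6.70%) and the same EGR1 and GADD45G below (11.8%), from only 61 cells. IER2 was at 151 (140 to 163) in WT and 154 (148 to 160) in GATA3 KO amnion/trophectoderm cells, against 91.6 and 102 in SOX2 cells. JUNB and ATF3 passed 1.5-fold in none of these contrasts.

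**Figure D2:**
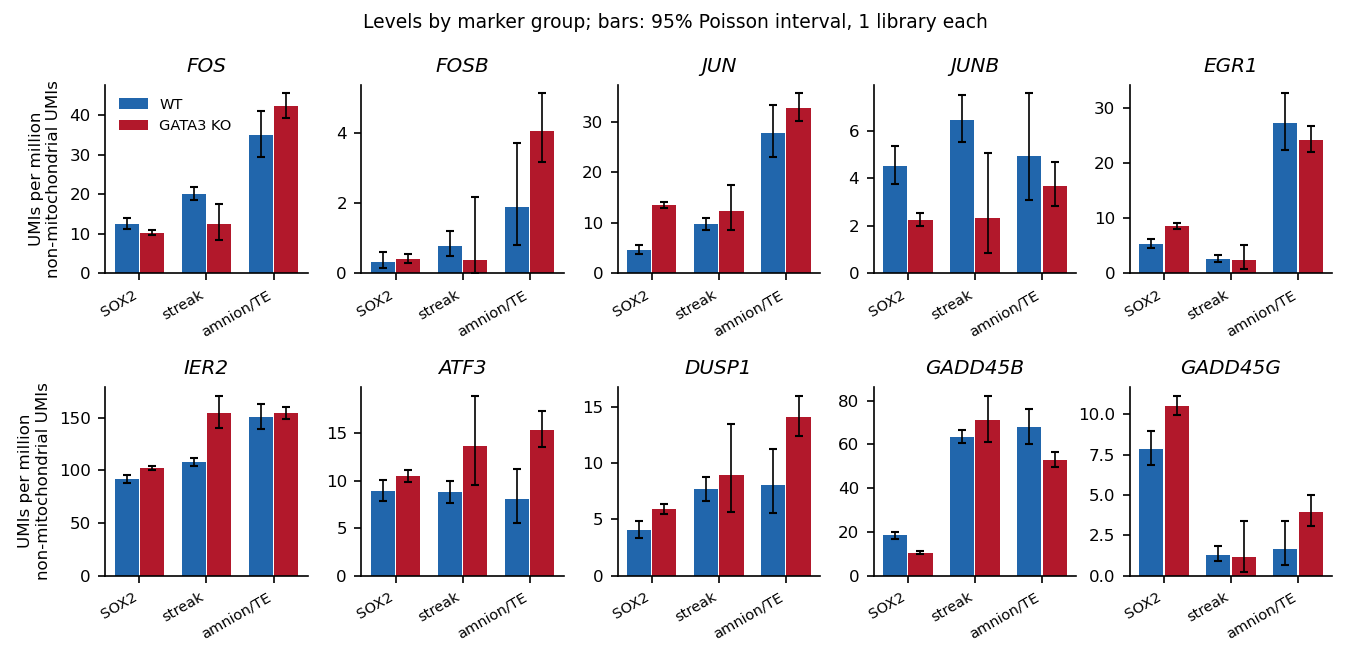
Level of each gene in CPM of non-mitochondrial UMIs in the SOX2, streak and amnion/trophectoderm (amnion/TE) marker groups of WT (blue) and GATA3 KO (red), with bars for 95% Poisson intervals. EGR1 stands at 27.1 and 24.2 in amnion/TE cells against 2.56 and 2.33 in streak cells, and GADD45G is highest in SOX2 cells of both libraries.

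Because the libraries held different shares of the marker groups (streak cells were 29.8% of thinned WT and 1.51% of thinned GATA3 KO cells, SOX2 cells 33.5% and 74.0%), the ratio between libraries was read within each group too. GADD45B differed by -1.19 over all cells, but by -0.78 (-0.92 to -0.63) within SOX2 cells, -0.36 (-0.55 to -0.17) within amnion/trophectoderm cells and 0.16 (-0.06 to 0.38) within streak cells. GADD45B differed by -0.71 (-0.86 to -0.57) in cells with fewer than 2 UMIs of each marker set (623 WT and 540 GATA3 KO cells). With GATA3 KO levels weighted to the WT shares of the marker groups, its log2 ratio was -0.20, against -1.20 unweighted on the same cells. That weighting was chosen after seeing the data and rests in part on only 61 streak cells and 6 cells with both marker sets in GATA3 KO.

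JUN and JUNB kept their differences under the weighting. JUN went from 0.79 to 0.81, and JUNB from -0.90 to -0.93. EGR1 went from 0.70 to 0.23 and GADD45G from 0.98 to 0.32. IER2, level over all cells, went from 0.02 to 0.21, and it was higher in GATA3 KO within streak cells by 0.52 (0.37 to 0.67) and within SOX2 cells by 0.16 (0.10 to 0.22). JUN differed most within SOX2 cells, by 1.36 (1.14 to 1.58), and by 0.23 (-0.05 to 0.52) within amnion/trophectoderm cells, where the interval spanned 0. In cells with fewer than 2 UMIs of each marker set JUN differed by 1.11 (0.92 to 1.31).

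The FOS difference changed direction with the marker group. It was -0.26 (-0.42 to -0.10) in SOX2 cells, -0.65 (-1.16 to -0.17) in streak cells and 0.27 (0.02 to 0.53) in amnion/trophectoderm cells. In cells with fewer than 2 UMIs of each marker set the FOS ratio was -0.85 (-1.07 to -0.64). Whether these ratios differ from each other could not be tested with 1 library each. Within amnion/trophectoderm cells 4 other genes were higher in GATA3 KO with counting intervals above 0, namely GADD45G by 0.90 (0.11 to 1.63), ATF3 by 0.86 (0.39 to 1.35), FOSB by 0.81 (0.04 to 1.54) and DUSP1 by 0.74 (0.27 to 1.24). In WT these rested on only 7 UMIs of GADD45G and 8 of FOSB, 3 of the latter in 1 cell. ATF3 and DUSP1 had 34 UMIs each there. The FOSB and GADD45G ratios are therefore near the limit of counting.

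**Figure D3:**
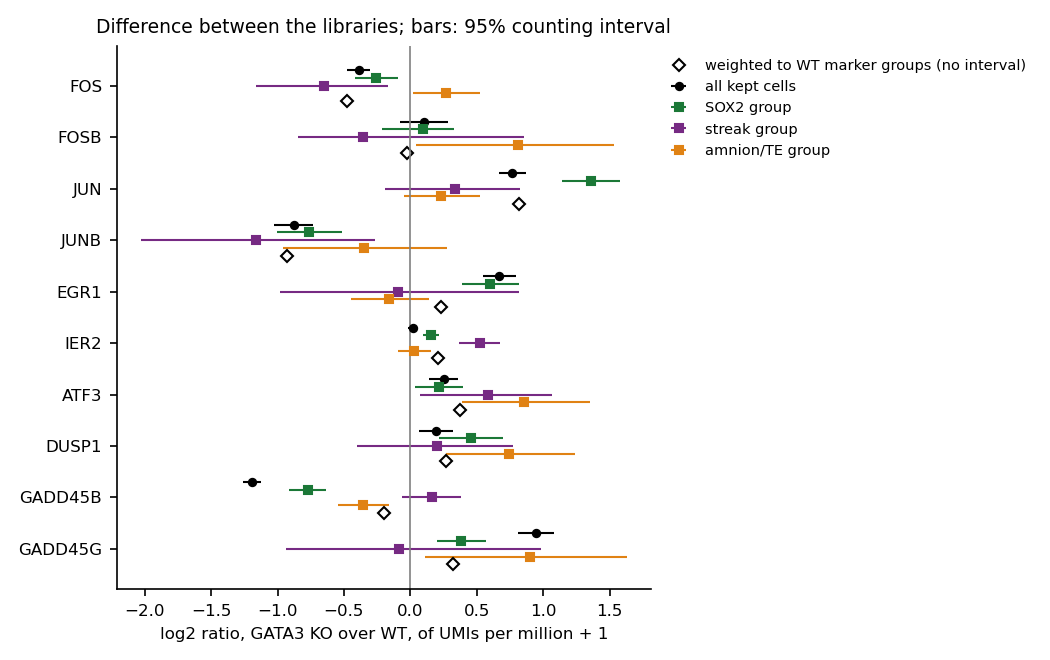
Log2 ratio of CPM + 1, GATA3 KO over WT, for each gene over all kept cells (black) and within the SOX2, streak and amnion/TE marker groups (coloured), with 95% counting intervals; open diamonds show GATA3 KO weighted to WT group shares, with no interval. GADD45B moves from -1.19 to -0.20 when weighted, while JUN and JUNB stay at 0.81 and -0.93.

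Mitochondrial share is a common sign of damaged cells, and in WT few genes of any kind differed by it by 1.5-fold. The 25% of kept cells with the highest mitochondrial share (the upper set) were compared with the 25% with the lowest (the lower set), in CPM of non-mitochondrial UMIs. The lower set held many shallow cells, 192 of 630 in WT and 495 of 1113 in GATA3 KO having under 2% mitochondrial counts with medians of 4080.5 and 6123 UMIs, and its median of 21702 UMIs in GATA3 KO compared with 40335 in the upper set (15873.5 and 41042.5 in WT). The part of depth in these ratios was not tested. In WT, 0 of 9 genes were at least 1.5-fold higher in the upper set (0.822% of all genes) and 0 were lower (0.419%). Counts of 0 are near those shares and are not read as a result about the members. In GATA3 KO, with FOSB again left out because only the lower set carried it past the filter, 0 of 9 were higher (3.73%) and 3 of 9 were lower (2.97%): FOS at -0.62 (-0.79 to -0.45), JUN at -0.66 (-0.81 to -0.51) and GADD45B at -1.03 (-1.18 to -0.89). Without the cells under 2% mitochondrial counts 2 of 9 were lower, FOS and GADD45B, but the share of all genes was not computed for that set of cells.

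The marker groups were spread unevenly over both sets of GATA3 KO. Amnion/trophectoderm cells made up 27.4% of the thinned cells of its lower set and 6.17% of its upper set. SOX2 cells made up 50.4% and 80.4%. When both sets were drawn within SOX2 cells alone, FOS was at 0.02 (-0.20 to 0.25), JUN at -0.08 (-0.28 to 0.12) and GADD45B at 0.08 (-0.14 to 0.30). This contrast was chosen after seeing the data. Within the kept cells of GATA3 KO, no member was 1.5-fold higher in cells of high mitochondrial share. With 3.73% of all genes higher, that is not read as a result about the members. Among SOX2 cells no member was 1.5-fold higher or lower, but the share of all genes was not computed there. In WT SOX2 cells FOS was higher in the upper set, by 0.68 (0.25 to 1.11). Within amnion/trophectoderm cells of GATA3 KO, FOS was at 0.08 (-0.25 to 0.41) and GADD45B at -0.08 (-0.36 to 0.21). JUNB was at -0.95 (-1.78 to -0.08) there and DUSP1 at -0.70 (-1.23 to -0.18).

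The members varied together across cells only weakly. Over the 45 pairs of genes, the median Pearson r of log(1 + UMIs) across thinned cells was 0.026 in WT (n = 2173 cells) and 0.034 in GATA3 KO (n = 4038). Cells share a library and were thinned to 1 depth, so r is a description of counts that are mostly 0. The median r of members with 9028 other genes was -0.0022 and -0.00062.

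FOS with EGR1 was the strongest pair in GATA3 KO but not in WT. In GATA3 KO this pair reached r = 0.19, FOS with FOSB 0.14, FOS with IER2 0.14 and JUN with GADD45B 0.14. In WT the highest was IER2 with GADD45B at 0.11, and FOS with EGR1 was at 0.09. GADD45G had r below 0 with 8 of the other 9 in GATA3 KO. EGR1 was seen in 16.9% (13.4 to 20.9) of GATA3 KO cells with a FOS UMI and in 5.40% (4.69 to 6.19) of those without. In WT the shares were 7.82% (5.07 to 11.4) and 4.34% (3.46 to 5.37). Within GATA3 KO SOX2 cells the EGR1 shares were 14.3% (10.2 to 19.2) and 4.72% (3.95 to 5.58), so the pairing of FOS and EGR1 was also seen inside 1 marker group.

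**Figure D4:**
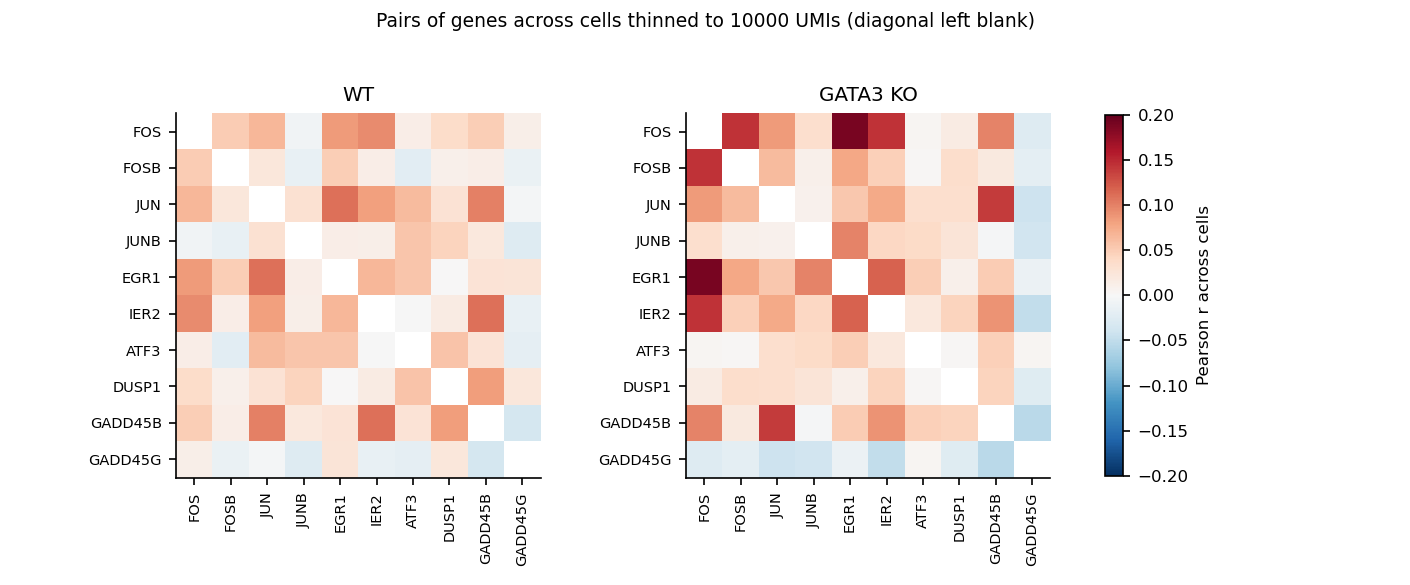
Pearson r of log(1 + UMIs) for each of the 45 pairs of genes across cells thinned to 10000 UMIs, for WT (left) and GATA3 KO (right), with colour from -0.20 (blue) to 0.20 (red) and the diagonal left blank. FOS with EGR1 in GATA3 KO, at 0.19, is the darkest pair, and the GADD45G values are pale or blue.

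The genes whose pattern was most like the sum of the members included direct BMP targets. Over 9028 genes of at least 5 CPM in both libraries, the 10 with the highest mean r over the libraries with the summed UMIs of the 10 members were ID3 (r = 0.28 in WT and 0.29 in GATA3 KO), ID1 (0.26 and 0.30), NTS, BAMBI, KRT18, HPGD, GSTO1, TAGLN, JUND and PCAT14. ID1 and ID3 are inhibitors of basic helix-loop-helix factors and direct targets of BMP signalling through SMADs, BAMBI encodes a decoy receptor of the same family of ligands, and JUND is a further AP-1 subunit. IER2 made up 52.6% of the members' UMIs in WT and 56.1% in GATA3 KO, so it weighs heavily in this sum. Without IER2 the highest mean r was that of ID1.

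Cells were ranked by the summed thinned UMIs of ID1, ID2 and ID3, a contrast chosen after seeing that ranking, and levels were compared between the 25% with the most and the 25% with the fewest. Because ID1 and ID3 were picked for their r with these same genes in these same cells, the counts describe that relation in levels and are no separate result. In WT 6 of 9 genes were at least 1.5-fold higher in the ID-high cells (4.21% of all genes) and GADD45G was lower (5.40%). In GATA3 KO, without FOSB, 8 of 9 were higher (6.22%) and GADD45G was lower (6.67%). The 6 of WT were FOS, JUN, JUNB, IER2, DUSP1 and GADD45B, and in GATA3 KO EGR1 and ATF3 joined them.

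GADD45B and JUN showed wide spans in both libraries. GADD45B was at 22.1 CPM of non-mitochondrial UMIs in the ID-low and 69.7 in the ID-high cells of WT, a log2 ratio of 1.61, and at 5.39 and 43.4 in GATA3 KO, a log2 ratio of 2.80. JUN was at 4.45 and 16.6 in WT, a log2 ratio of 1.69, and at 8.57 and 31.8 in GATA3 KO. GADD45G ran against these, at 6.56 and 2.41 in WT and at 14.1 and 3.27 in GATA3 KO. Within SOX2 cells of GATA3 KO alone the log2 ratio of GADD45B was 1.88 and that of JUN 1.28, so both spans were narrower inside this group. Within amnion/trophectoderm cells GADD45B was at 0.58 (0.07 to 1.10) in WT and 1.45 (1.18 to 1.73) in GATA3 KO. JUN was at -0.29 (-1.04 to 0.45) in WT and 0.59 (0.26 to 0.92) in GATA3 KO, and EGR1 at -0.74 (-1.59 to 0.10) in WT and 1.34 (0.94 to 1.75) in GATA3 KO. The WT sets there held only 30 and 31 cells, and the WT intervals of JUN and EGR1 spanned 0, so their direction could not be read.

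**Figure D5:**
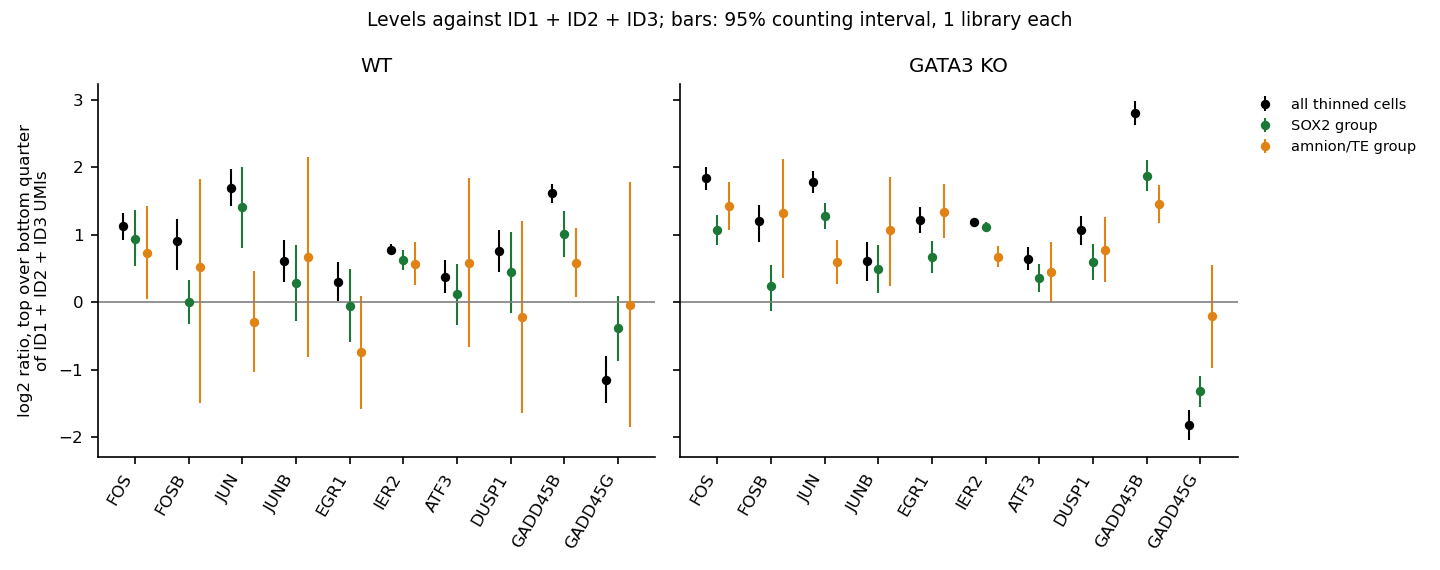
Log2 ratio of each gene's level in the 25% of cells with the most over the 25% with the fewest summed ID1, ID2 and ID3 UMIs in WT (left) and GATA3 KO (right), over all thinned cells (black) and within the SOX2 and amnion/TE groups, with 95% counting intervals. Over all cells JUN is highest in WT at 1.69 and GADD45B in GATA3 KO at 2.80, and GADD45G is below 0 over all cells of both libraries.

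Neighbouring genes of these pathways were set beside the members as lists of named genes. Counts below are genes at least 1.5-fold higher or lower in GATA3 KO than in WT among those of a mean of 1 CPM or more, and are read against the 12.9% and 7.83% of all genes. Of 15 other AP-1 and ATF factors, 3 were higher, ATF5, a stress factor, being highest at 8.09 CPM in WT and 16.1 CPM in GATA3 KO, and 0 were lower. JUND was the lowest, at 273 CPM and 195 CPM. Of 23 other serum-response early genes, 5 were higher and 3 lower. CYR61, a secreted matrix protein gene, was highest, at 32.1 CPM and 71.2 CPM, and KLF10, a TGF-beta-induced factor, was lowest, at 14.6 CPM and 7.37 CPM.

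Among feedback genes of MAP kinase signalling, more were 1.5-fold lower than 1.5-fold higher. Of 14 MAPK phosphatases and feedback inhibitors, 2 were higher, with the ERK phosphatase DUSP6 at 15.2 CPM and 26.9 CPM, and 5 were lower, with DUSP5 at 19.8 CPM and 6.64 CPM. Of 16 ERK and SRF pathway components 4 were higher and 2 lower, from FGFR1, a receptor of fibroblast growth factors (89.6 CPM and 179 CPM), to ELK3, a ternary complex factor (7.21 CPM and 3.33 CPM). Of 11 GADD45 and stress kinase genes 1 was higher, the kinase gene MAP2K7 (10.3 CPM and 17.3 CPM), and 1 lower, the kinase gene MAPK9 (32.1 CPM and 20.1 CPM).

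Each of the general stress lists held genes higher and genes lower in GATA3 KO. Their median log2 ratios were 0.03 for heat shock, 0.17 for integrated and ER stress and 0.08 for oxidative stress genes, against 0.07 over all genes. Of 15 heat shock genes 1 was higher, HSF1, the heat shock factor (20.2 CPM and 42.2 CPM), and 3 were lower, with the co-chaperone gene DNAJB4 lowest (15.6 CPM and 7.99 CPM). Of 16 integrated stress and ER stress genes 4 were higher and 1 lower, from CHAC1, a target of ATF4 (5.26 CPM and 12.4 CPM), to CEBPB (43.2 CPM and 24.7 CPM). Of 9 oxidative stress genes 2 were higher and 1 lower, from HMOX1, the heme oxygenase (6.12 CPM and 11.7 CPM), to TXN, the thioredoxin (1013 CPM and 538 CPM).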

How the data were processed

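The authors dissociated the cells, made 10x Genomics 3′ libraries, aligned reads with Cell Ranger 3.0.2 to GRCh38 and deposited UMI counts per gene and cell barcode. The deposited counts had no limit on genes or mitochondrial share. Limits followed the study's methods, at most 7500 detected genes and 25% mitochondrial counts. Doublets were not removed by a caller. The libraries shared 8 cell barcodes.

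Counts of kept cells were summed per library or marker group and scaled to CPM, with pseudocount 1 CPM for ratios. Intervals were exact Poisson, binomial or Clopper-Pearson at 95%. Cells were thinned to 10000 UMIs (seed 42). With 1 library per group, nothing was tested. Scripts ran in Python 3.11.15 with numpy 2.4.6 and scipy 1.17.1, and edgeR 4.0.16 gave only scaling factors. The ratio step was tested on simulated data. Motifs and promoters came from the RefSeq table, which held all 10 genes. Positions came from the GENCODE annotation of GRCh38.

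Named genes were the 10 members, GATA3, the highest and lowest gene of each list, and the 10 genes most like the members. Other names are marker genes, genes overlapping members, and ID2, added after its values were seen. Members and lists were chosen with earlier results of these data known.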

Additional observations from a re-analysis of the deposited data

Results flagged for a closer look

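FOS bore opposite relations to mitochondrial share in the libraries, at a log2 ratio of 0.27 (the 25% of kept cells with the highest share over the 25% with the lowest) in WT and -0.62 in GATA3 KO. This was picked out because the directions were opposite, and the difference was not tested. The FOS ratio between libraries, GATA3 KO over WT, was -0.65 in streak marker cells and -0.26 in SOX2 marker cells but 0.27 in amnion/trophectoderm marker cells, again opposite in direction and not tested. It was -0.85 in cells with fewer than 2 UMIs of each marker set.

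Cells removed for over 25% mitochondrial counts entered no comparison above. Their CPM of non-mitochondrial UMIs were compared with those of kept cells. EGR1 was higher in the removed cells by a log2 ratio of 0.80 in WT (271 cells) and 0.67 in GATA3 KO (506 cells), JUN by 0.73 in GATA3 KO and GADD45G by 0.59 in GATA3 KO, each with a counting interval above 0. These were picked out for being at least 1.5-fold higher with such an interval, and the share of all genes past that was not computed. In WT, IER2 was higher by 0.34 (0.13 to 0.54), and ATF3 was at -0.84 (-1.84 to 0.07). FOS was at 11.8 (8.08 to 16.7) in the removed GATA3 KO cells. These cells held medians of 7183 and 8690 UMIs, and the part of depth in these values was not tested.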

How the results depend on the processing

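Of 120 ratios of single genes under alternatives, 87 stayed within the counting interval of the value above, 26 moved beyond it and 7 changed sign. The sign changes were of FOSB (-0.0089 over all deposited cells, -0.0195 with no limit on genes, -0.40 as the mean of per-cell CPM, -0.0254 weighted to the WT marker groups) and IER2 (-0.0123 without the 10% of cells with the most UMIs, -0.0014 with RLE factors, -0.12 as the mean of per-cell CPM). The median log2 ratio of the 10 genes was 0.15, and it was 0.092 over all deposited cells, 0.099 with no limit on genes, 0.153 with no mitochondrial limit, 0.152 with at least 2000 genes, 0.108 without the top 10% of cells, 0.150 on non-mitochondrial UMIs, 0.140 with TMM, 0.136 with RLE, 0.071 as the mean of per-cell CPM, 0.222 and 0.050 with pseudocounts of 0.1 and 10 CPM, and 0.221 weighted to the WT marker groups.

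The 3 genes higher and 2 lower at 1.5-fold became 2 higher over all deposited cells and with no limit on genes (EGR1 fell below at 0.38 and 0.37), 1 higher as the mean of per-cell CPM, 0 higher and 1 lower with a pseudocount of 10 CPM, with a mean of at least 20 CPM or at 2-fold, and 1 higher and 1 lower when weighted. The counts in this paragraph include FOSB. At the alternative settings in this paragraph, 2-fold aside, the share of all genes was not computed. Counts without that share are not read as a result about the members. By mitochondrial share, drawn within SOX2 cells, 1 WT gene was higher and 0 GATA3 KO genes were lower. Within amnion/trophectoderm cells 1 WT gene was higher, 4 were lower and 2 GATA3 KO genes were lower, from 30 WT cells in each set. The 4 were FOSB, JUN, JUNB and ATF3, and the intervals of JUN, JUNB and ATF3 spanned 0. FOSB passed the filter only through the lower set. The share of all genes was not computed within marker groups, so these counts are not read as a result about the members. With markers of at least 1 UMI, 1 gene was lower in WT streak cells, 4 were higher in WT amnion/trophectoderm cells and 1 was higher in GATA3 KO streak cells. The last count was 1 also with at least 3 UMIs or thinning to 20000.

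The median pair r was 0.025 in WT and 0.027 in GATA3 KO as Spearman rho, 0.031 and 0.059 with thinning to 20000, 0.023 and 0.032 in cells of 5% to 15% mitochondrial counts, and -0.0056 and 0.0061 within SOX2 cells. The weighting and the mitochondrial sets within marker groups were chosen after seeing the data, and the cause of these shifts was not tested. No paired analysis was possible because each group held 1 library. Depth was low for FOSB, the 61 GATA3 KO streak cells and the 118 WT amnion/trophectoderm cells.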

Other observations

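Markers of other cell types were read as sums over 3 genes each. Endoderm markers (SOX17, FOXA2, GATA6) summed to 18.7 CPM in WT and 0.319 CPM in GATA3 KO, germ cell markers (NANOS3, TFAP2C, PRDM1) to 16.1 and 12.7 CPM, and neural ectoderm markers (PAX6, SOX1, SOX21) to 1.35 and 2.34 CPM. Fibroblast markers (COL1A1, COL1A2, DCN) summed to 81.2 and 82.5 CPM, with DCN at 0 in WT and 0.0114 CPM in GATA3 KO. The stress genes DDIT3, BBC3 and PMAIP1 summed to 155 and 180 CPM, most of it PMAIP1, at 133 and 146 CPM. The part of such cells in the levels of the 10 genes was not tested.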
